A study of Sus scrofa with 14 samples.

Results

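Adipose tissue of wild boars and Bama pigs was compared for its A and B compartments, measured by in situ Hi-C, in 7 libraries. The 4 wild boar (WB) libraries were 2 of the greater omentum (GOM, a visceral depot) and 2 of the upper layer of backfat (ULB, a subcutaneous depot). The 3 Bama pig (BM) libraries were 2 of the GOM and 1 of the ULB, which is replicate 2. All animals were adult females of 2 years, 2 of each breed. Both breeds were kept in single pens on one farm under the same feeding. The wild boars were wild-caught and had lived in captivity since early life. Libraries of both depots came from the same 2 animals of a breed, so they are not independent animals, and the labels do not say which numbers share an animal. RNA-seq libraries of the same 7 kinds gave expression. Hi-C nuclei came from the adipocyte layer that rose when the cross-linked tissue was spun, whereas total RNA was extracted from each sample. The assays may therefore not read the same mix of cells, which was not tested. For Bama pig ULB the study made 1 library of each assay and took 1 of each from earlier work, and the one used here was deposited with the series. The compartment score was the first principal component (PC1) of the contact matrix of each chromosome in 20-kb bins, positive in compartment A and negative in compartment B. Chromosome 10 was left out, because the correlation of PC1 between libraries fell to -0.933 there, whereas it was at least 0.905 on each of the other 17 autosomes. A bin was said to differ between the breeds when all WB values had one sign and all BM values the other, in both depots alike. Of 109830 bins (2196 Mb), 172 (0.157%) met this rule, and they covered 3.44 Mb.

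Compartment A gathers open, gene-rich chromatin and compartment B closed, gene-poor chromatin, and a locus can move between them as a cell type forms. A PC1 near 0 marks the border of both. Because the sign alone defines the rule, a small shift is enough near the border. The fat cells of the omentum and of backfat differ in origin and in lipid turnover. The pig is a common model for both depots.

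For the members on which the expression and PC1 results turn, the promoter sequence is given here: PCSK6, the only placed gene whose start-site bin both differed in sign and passed the limma fit of PC1, ABCB11, the only one of these genes whose expression passed the edgeR fit, and GIMAP4, the only one in B in wild boar. Each is the 250 bases before the start site of the RefSeq gene in Sscrofa11.1, 5′ to 3′ on the strand of the gene, with CG dinucleotides in capitals. PCSK6 is at chr1:145508408-145508657 (plus strand), ABCB11 at chr15:75487093-75487342 (minus strand) and GIMAP4 at chr18:6452964-6453213 (minus strand).
PCSK6: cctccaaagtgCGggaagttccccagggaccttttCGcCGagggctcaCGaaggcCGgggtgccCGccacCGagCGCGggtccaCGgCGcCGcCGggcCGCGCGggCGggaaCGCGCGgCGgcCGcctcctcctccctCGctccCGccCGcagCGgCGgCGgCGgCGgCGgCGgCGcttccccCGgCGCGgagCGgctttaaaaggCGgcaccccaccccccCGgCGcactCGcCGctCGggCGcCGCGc
ABCB11: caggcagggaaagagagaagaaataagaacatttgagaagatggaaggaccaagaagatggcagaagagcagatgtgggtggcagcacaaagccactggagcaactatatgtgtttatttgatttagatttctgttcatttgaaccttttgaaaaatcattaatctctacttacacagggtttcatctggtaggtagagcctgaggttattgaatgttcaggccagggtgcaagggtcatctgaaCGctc
GIMAP4: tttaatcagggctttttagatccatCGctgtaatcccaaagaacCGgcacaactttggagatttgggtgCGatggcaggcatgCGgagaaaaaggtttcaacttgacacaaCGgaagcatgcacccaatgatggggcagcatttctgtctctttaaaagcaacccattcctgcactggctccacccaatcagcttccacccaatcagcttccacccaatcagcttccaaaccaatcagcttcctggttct
The letters CG were counted once per site, since both strands read the same. The PCSK6 promoter held 46 of them, against a median of 15 over 12764 placed promoters of the same length, and 1.3% of those held as many or more. The ABCB11 promoter held 1, and 97.7% of promoters held at least that. GIMAP4 held 5, which 81.2% of promoters reached. These 3 genes, picked by other results from the 14 with a start-site bin that differed, thus ranged from CG-rich to nearly CG-free.

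Expression was that of fat in each library. The summed TPM, a level of expression scaled by transcript length and library total, of 11 adipocyte markers, among them FABP4 and ADIPOQ, lay between 10594 and 19441. Transcripts of other tissues were not even between the breeds. Of 9 liver and pancreas transcripts found of 12 listed, 7 were higher in each BM library than in each WB library. The pancreas transcripts PNLIP and CPA1 were not. The share of all genes that part the breeds in this way was not counted. By edgeR 3 of 8 tested passed, against 0.531% of all genes. The sum of the 9 was 110 to 1085 TPM in BM against 6.48 to 11.8 in WB. Muscle markers summed to 397 TPM in WB ULB replicate 1 and to at most 9.6 in the others. Mesothelial markers were higher in the GOM (160 to 533) than in the ULB (3.91 to 26.2). In bulk tissue, fewer cells of a type and less RNA per cell cannot be told apart.

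Of the bins that differed, 133 (2.66 Mb) were in A in wild boar and in B in Bama pig, and 39 (0.78 Mb) were in B in wild boar and in A in Bama pig. This leaning towards A in wild boar depended on where 0 was set. When PC1 was centred on the median of each chromosome, 80 bins were A in wild boar and 81 were B, and 58 of the 133 and 26 of the 39 bins still differed. The share of bins in A was 49.7% to 50.7% in WB libraries and 48.6% to 49.0% in BM libraries. Most bins that differed lay close to the border: their median absolute PC1 was 4.75 and 4.84 in the 2 directions, against 23.9 over all bins. They were also scattered. In the A direction there were 116 single bins, 7 pairs and 1 run of 3, and in the B direction 36 single bins and 1 run of 3. They lay on all 17 chromosomes in the A direction and on 16 in the B direction, and the share that differed ran from 0.063% on chromosome 17 to 0.241% on chromosome 1.

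The length that differed was set against every other way of parting the 7 libraries into 4 and 3. The breed ranked 6 of 35 partings (exact permutation test over libraries, one-sided p = 0.171, adjusted p = 0.2), where the smallest possible p was 0.0286. The depot ranked first with 19.9 Mb (997 bins). The 33 partings that follow neither breed nor depot gave 0.56 to 12.7 Mb with a median of 1.5 Mb, so the breed lay above their median and below the longest of them. The longest of them joined WB GOM replicate 1 with the 2 WB ULB libraries and the BM ULB library. For runs of at least 3 bins the breed gave 0.12 Mb (rank 7, exact p = 0.2) and for start sites of placed genes 14 (rank 4, exact p = 0.143), each with an adjusted p of 0.2. The rule loosens with fewer libraries: without the only BM ULB library 23.0 Mb and 93 genes differed, and without any other library 4.68 to 7.86 Mb and 19 to 34 genes. The length in runs was 4.64 Mb without that library and 0.24 to 0.66 Mb without any other. Thus 4 partings that follow neither breed nor depot gave a longer length than the breed. Each was 1 library away from the depot or the breed parting. Those ranked 2 and 3 were the depot parting with WB GOM replicate 1 and 2, in turn, moved to the ULB side. That ranked 5 was the same with BM GOM replicate 1 moved. That ranked 4 was the breed parting with WB GOM replicate 2 moved to the BM side.

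**Figure D1:**
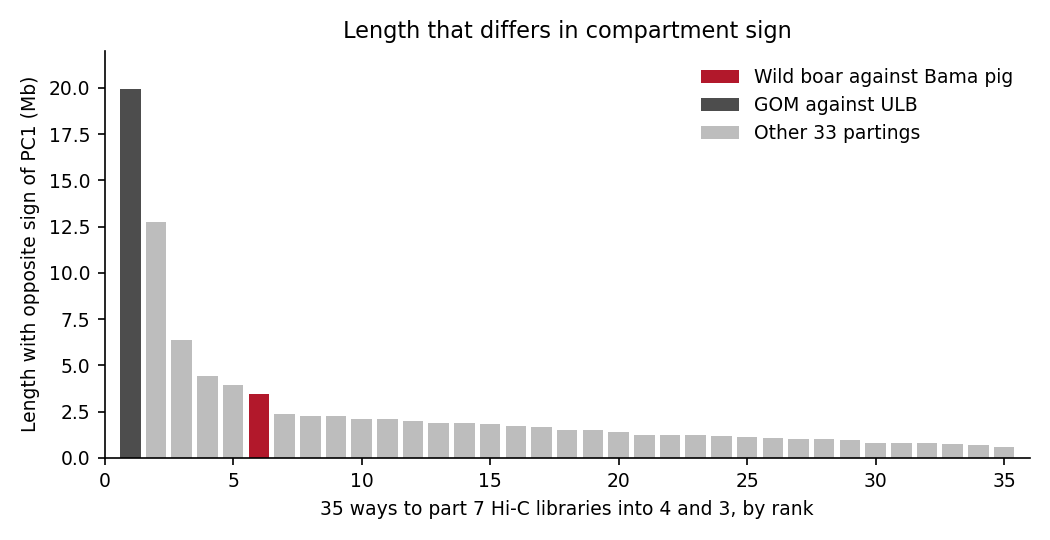
Length of autosomes without chromosome 10 (Mb, y axis) where PC1 had opposite signs in 4 and in 3 of the 7 Hi-C libraries, for all 35 partings in order of length (x axis). The breed (red, 3.44 Mb) is the sixth bar, well below the depot (dark grey, 19.9 Mb).

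PC1 was also compared as a number. The breed difference is the mean of the WB minus BM differences in the GOM and in the ULB, in PC1 units. Its SD over bins was 4.80. The difference in the GOM and that in the ULB share no library, and across bins they correlated with r = 0.261. This was the highest of the 18 values obtained by relabelling breed within depot (exact permutation test over libraries, one-sided p = 0.0556, the smallest possible, adjusted p = 0.2). By chromosome r ran from -0.0837 on chromosome 17 to 0.412 on chromosome 2. With chromosome 10 added, r fell to 0.104 (exact p = 0.389), and without WB GOM replicate 1 it was 0.157 (exact p = 0.111). Extreme bins carried over between depots, more so those low in wild boar. The 100 bins lowest in the GOM had a median difference of -27.9 there and of -16.7 in the ULB, where 77 of 100 were negative against 49.5% of all bins. The 100 bins highest in the GOM had a median of 36.2 there and of 4.42 in the ULB, where 67 of 100 were positive against 50.5% of all. Chosen in the ULB, the 100 lowest had a median of -17.6 in the GOM with 87 negative, against 51.3% of all bins. The 100 highest chosen there had a median of 9.16 in the GOM with 77 positive, against 48.7% of all. Some of these bins held, in at least 1 library, the recurring PC1 value described below. They were 14 of the 100 lowest chosen in the GOM and 16 chosen in the ULB, against 0 and 5 of the 100 highest. Their part in the carry-over was not tested. The test of breed by depot found no bin with limma (0 of 109830, 5039 with an unadjusted p below 0.05).

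**Figure D2:**
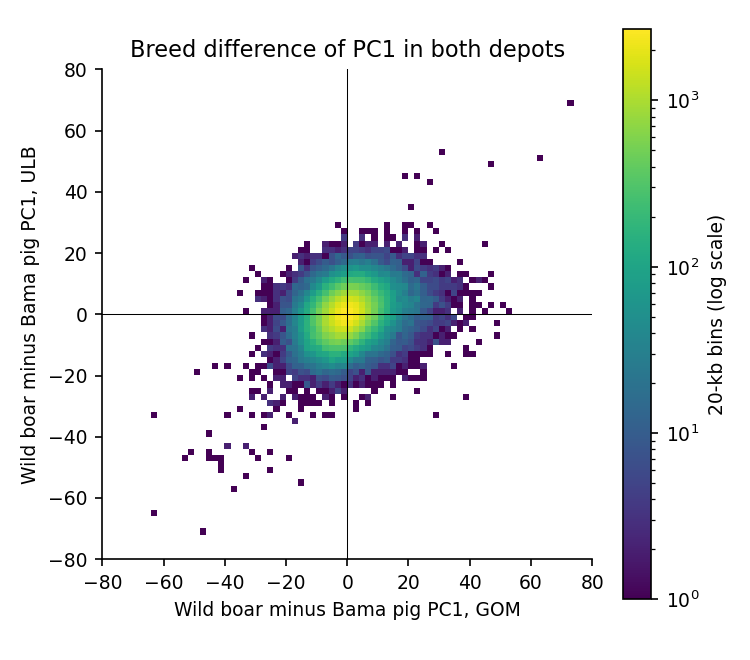
Wild boar minus Bama pig PC1 in the GOM (x axis) and in the ULB (y axis), as the number of 20-kb bins in each cell of 2 by 2 PC1 units (colour, log scale). The cloud is centred on 0 with r = 0.261, and the most distant cells lie mostly in the lower left and upper right, where both depots differ in the same direction.

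PCSK6 (ENSSSCG00000005785, chr1:145508658-145697017) encodes a convertase that cleaves precursor proteins on the secretory route. PC1 in its start-site bin, chr1:145500001-145520000, was 21.1 and 20.3 in WB GOM and 12.1 and 17.6 in WB ULB. It was -7.06 and -7.75 in BM GOM and -5.24 in BM ULB. All WB libraries were in A and all BM libraries in B, as the sign rule requires. The WB values lay below the median absolute PC1 of 23.9 over all bins. The breed difference was 24.1 PC1 units (SE 2.85, adjusted p = 0.0325 with limma), and it passed in 2 of the 7 fits that left out 1 library, where it was 22.7 to 28.1. With median-centred PC1 the difference was 21.1 and no longer passed (adjusted p = 0.0614), nor did it pass when bins of repeated sequence were left out. A second bin of the gene, chr1:145600001-145620000, also differed in sign, with 7.48 to 21.4 in WB and -14.8 to -0.78 in BM, and limma gave an adjusted p of 0.213. Expression did not follow. TPM was 14.2 and 12.5 in WB GOM, 9.93 and 15.5 in WB ULB, 25.2 and 11.3 in BM GOM and 7.41 in BM ULB. The groups overlapped, and the log2 fold change of 0.41 (SE 0.32) had an adjusted p of 0.467 with edgeR.

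LTBP1, RASGRP3 and TTC27 lay in the stretch with the most bins that differed within 500 kb of each other. At chr3:106120001-106920000, 12 of 40 bins were in A in wild boar and in B in Bama pig. With median-centred PC1, 10 of these 12 still differed. LTBP1 (chr3:106300748-106724538) encodes a protein that keeps latent TGF-β in the extracellular matrix, and 6 of its 22 bins differed. RASGRP3, an exchange factor that activates Ras, had 2 of 7, and TTC27 2 of 9. Mean PC1 over all 40 bins was 7.57 and 4.25 in WB GOM, 5.85 and 8.80 in WB ULB, -4.34 and -8.16 in BM GOM and -0.73 in BM ULB. Of the 40 bins, 34 to 39 were in A in each WB library, 5 and 0 in BM GOM and 18 in BM ULB. The ULB library of Bama pig was therefore the nearest to wild boar. The run of 3 bins inside LTBP1, chr3:106660001-106720000, averaged 6.72, 3.51, 4.76 and 4.43 in the WB libraries and -4.58, -7.16 and -2.51 in the BM libraries. No bin of LTBP1 passed limma, and the 6 bins that differed in sign, by 7.01 to 15.2 PC1 units, had adjusted p-values of 0.171 to 0.418. The start-site bin of LTBP1 did not meet the sign rule, since BM GOM replicate 1 was at 1.76. LTBP1 TPM was 88.6 and 83.5 in WB GOM and 68.3 and 94.9 in WB ULB. It was 103 and 56.4 in BM GOM and 34.3 in BM ULB. The highest value was a BM library and the 2 lowest were BM libraries too. The log2 fold change was 0.93 (SE 0.29, adjusted p = 0.152 with edgeR), and over the alternatives its adjusted p ran from 0.0354 to 0.539. RASGRP3 and TTC27 had log2 fold changes of 0.27 (adjusted p = 0.589 with edgeR) and 0.40 (adjusted p = 0.491).

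Another 2 places held 3 bins in A in wild boar within 500 kb of each other. At chr8:44260001-44620000, around GUCY1A3 and GUCY1B3, the subunits of the nitric oxide receptor guanylate cyclase, the 3 bins averaged 3.17 and 2.92 in WB GOM, 5.52 and 1.90 in WB ULB, -2.90 and -3.44 in BM GOM and -3.52 in BM ULB. At chr1:187260001-187800000, between ACTR10 and DACT1, they averaged 3.90 to 11.7 in WB and -14.5 to -2.25 in BM. The bins on chromosome 8 stayed within 7.07 units of 0, and those on chromosome 1 reached 18.2 in WB and -21.8 in BM.

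**Figure D3:**
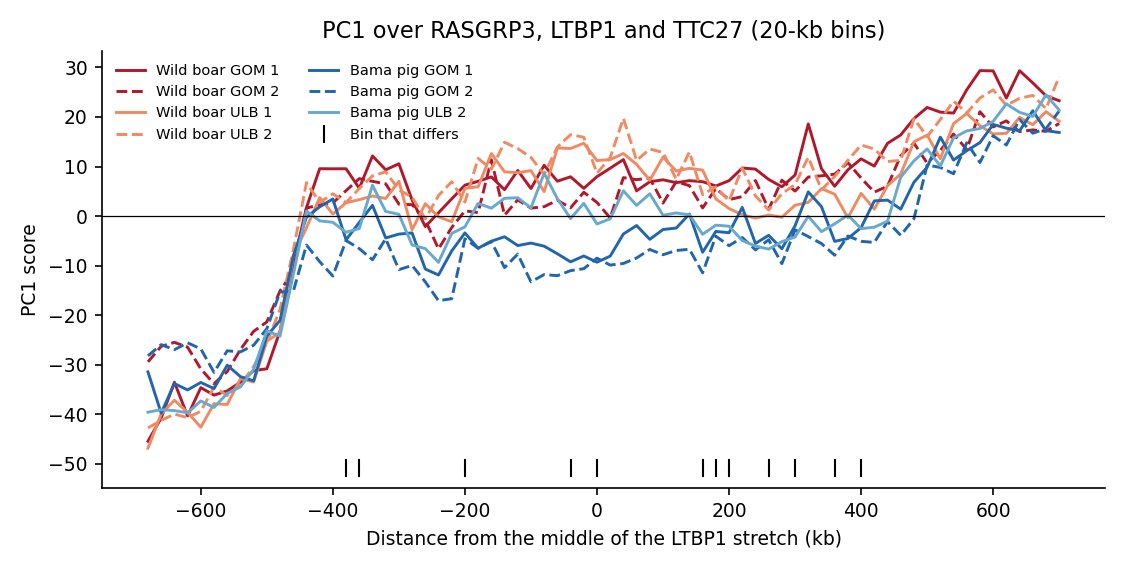
PC1 score (y axis) in 20-kb bins by distance from the middle of the stretch that holds RASGRP3, LTBP1 and TTC27 (x axis, kb), with 1 line for each of the 7 Hi-C libraries. The ticks mark the 12 bins that differed, where the 4 WB lines lie above 0 and the 3 BM lines below it, and all lines are below 0 at the left edge and above 0 at the right edge.

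The 14 placed genes whose start-site bin differed are given here in full, 13 in A in wild boar and GIMAP4 in B. Beside PCSK6, the difference was largest for MAP9, a microtubule-associated protein of the mitotic spindle, with 1.14 to 7.51 in WB and -18.0 to -7.71 in BM. It was smallest for KCNJ11, with 1.53 to 9.73 in WB and -1.32 to -0.01 in BM. Between them came SKA1 (a kinetochore protein), DYDC2, KLHL32, ABCB11, MLANA (a melanosome protein), FOXD2 (a forkhead factor), SLC18A2 (the vesicular monoamine transporter), TTC21B (intraflagellar transport), and RRS1 and ADHFE1 (ribosome assembly and hydroxyacid oxidation). RRS1 and ADHFE1 start in one bin. Of these start-site bins, that of PCSK6 passed limma (adjusted p = 0.0325), against 0.01% of all bins that passed as higher in wild boar. The others had adjusted p-values with limma from 0.155 for MAP9 to 0.579 for KCNJ11. The sign rule and limma read the same PC1 values, so bins that met the rule pass limma more readily by choice alone. With median-centred PC1, PCSK6, MAP9, MLANA and GIMAP4 still differed and the other 10 did not. In expression, 13 of the 14 could be tested, since MLANA was at 0 TPM in 6 libraries. One of these 13, ABCB11, passed edgeR, against 0.531% of all genes. Without BM ULB replicate 2 only 4 genes in all passed, and without BM GOM replicate 2 it was 1806, so that share rested on single libraries. The 12 tested genes in A in wild boar had a median log2 fold change of -0.15, against 0.08 over all placed genes tested.

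ABCB11 (ENSSSCG00000015926, chr15:75402296-75487092) encodes the bile salt export pump of hepatocytes. PC1 in its start-site bin, chr15:75480001-75500000, was 5.84 and 6.17 in WB GOM, 0.51 and 5.20 in WB ULB, -0.53 and -0.14 in BM GOM and -9.01 in BM ULB. Both breeds thus came close to 0 in some library. TPM was 0.014 and 0.012 in WB GOM, 0.074 and 0.098 in WB ULB, 0.821 and 1.43 in BM GOM and 0.441 in BM ULB. All BM libraries were above all WB libraries, opposite in direction to PC1. Estimated counts were 0.9 to 5.7 in WB and 22.4 to 72.3 in BM. The log2 fold change was -3.98 (SE 0.65, adjusted p = 0.0393 with edgeR). It passed in 2 of 7 fits that left out 1 library, and its adjusted p over all alternatives ran from 0.0006 to 0.181. The liver transcripts ALB, APOB and FGB also fell in wild boar, and the sum of the liver and pancreas list moved with the breed as given above. Their part in the ABCB11 value was not tested.

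GIMAP4 (chr18:6429886-6452963) encodes a GTPase of lymphocytes. PC1 in its start-site bin was -2.14 and -1.15 in WB GOM, -6.56 and -1.61 in WB ULB, 4.00 and 4.95 in BM GOM and 4.16 in BM ULB. The sign rule itself sets the breeds apart here, and all values were within 7 units of 0. TPM was 102.0 and 52.4 in WB GOM, 23.6 and 28.2 in WB ULB, 150 and 61.6 in BM GOM and 53.5 in BM ULB. The GOM values overlapped between the breeds. The log2 fold change was -0.51 (SE 0.33, adjusted p = 0.391 with edgeR), and it turned to 0.12 without BM ULB replicate 2. Lymphocyte markers summed to 62.0 and 67.6 TPM in WB GOM and 82.1 and 75.8 in BM GOM, and to 27.2 to 33.4 over the ULB libraries of both breeds, and no marker of the 11 passed edgeR. Their part in the GIMAP4 value was not tested.

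**Figure D4:**
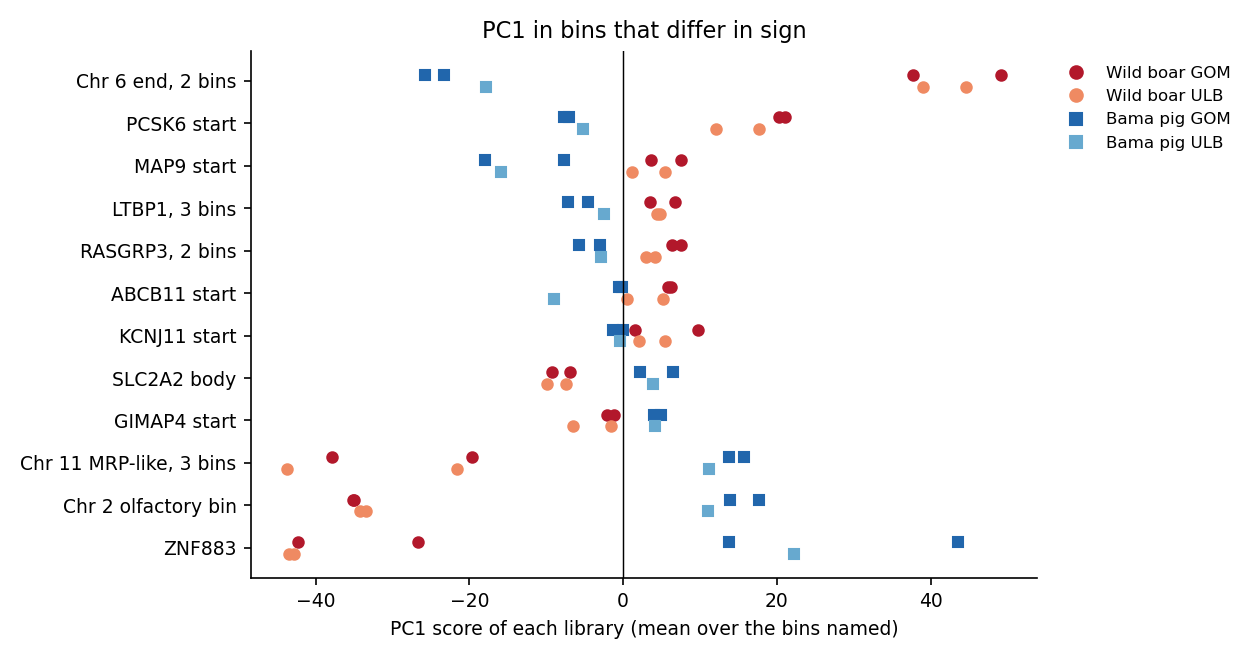
PC1 score of each Hi-C library (x axis) in single bins or runs that differed in sign, 1 line each, with circles for wild boar and squares for Bama pig. The first 7 lines are in A in wild boar and the last 5 in B, and the widest gaps are at the end of chromosome 6, ZNF883 and the repeat-rich bins of chromosomes 2 and 11. In the chromosome 2 bin, and in the first of the bins averaged on chromosome 11, all BM libraries held the recurring PC1 value read as standing for bins without a value of their own.

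Genes with a bin that differed anywhere in the gene numbered 63. Beside ABCB11, 1 of them passed edgeR, where 0.531% of all genes passed. Counts this small are no result about these genes as a set. NPSR1 (ENSSSCG00000016664, chr18:38942499-39212791), the neuropeptide S receptor, had 2 of 14 bins in B in wild boar and in A in Bama pig. In the first, chr18:39080001-39100000, PC1 was -4.17, -6.43, -3.51 and -1.96 in WB and 7.35, 2.51 and 2.38 in BM. In the second, chr18:39120001-39140000, it was -7.88 to -6.61 in WB and 0.12 to 3.74 in BM. Its start-site bin was -10.9 to -7.49 in WB but mixed in BM, at 4.64, -5.15 and 0.51. TPM was 0.37 and 0.361 in WB GOM, 0.9 and 0.187 in WB ULB, 25.4 and 14.8 in BM GOM and 16.2 in BM ULB. Expression was thus low in wild boar, where those 2 bins were in B, and did not overlap. At the far end of the gene, chr18:38940001-38960000 was in A in all 7 libraries, at 2.70 to 10.7. The log2 fold change was -5.01 (SE 0.63, adjusted p = 0.0211 with edgeR), -5.98 to -4.60 when each library was left out, with 3 of those 7 fits past the threshold.

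KCNJ11, SLC2A2, TNIK, PDE3B and CDKAL1 each had 1 or 2 bins that differed and are described singly. No member of the lists of diabetes, lipid synthesis or lipolysis genes had a start-site bin that differed. The bin chr2:41740001-41760000 holds the start of KCNJ11, the pore subunit of the ATP-sensitive potassium channel, and the end of ABCC8, its sulfonylurea receptor. KCNJ11 TPM was 0.063 to 0.439 in WB and 0.379 to 0.639 in BM, and its log2 fold change of -0.80 had an adjusted p of 0.44 with edgeR. SLC2A2, a glucose transporter of liver and islets, differed in the bin chr13:109580001-109600000, with -9.28 and -6.88 in WB GOM, -7.46 and -9.95 in WB ULB, 2.24 and 6.46 in BM GOM and 3.89 in BM ULB. All WB values were in B and all BM values in A, in both depots, as the rule requires. Its start-site bin was mixed, as BM ULB was at -4.66. The neighbouring TNIK, a kinase gene, had 2 more such bins, so that 3 of 10 bins at chr13:109580001-109780000 differed. SLC2A2 TPM was 0.131 to 0.591 in WB and 0.356 to 1.96 in BM (log2 fold change -1.05, adjusted p = 0.391 with edgeR). For NKX6-1, a β-cell factor, the start-site bin was -4.98 and -5.40 in WB GOM against 1.99 and 1.61 in BM GOM, and 9.88 and 5.89 in WB ULB against 16.7 in BM ULB. PC1 was lower in wild boar by a like amount in both depots (-6.99 in the GOM and -8.84 in the ULB), but only the GOM values crossed 0, so no bin of NKX6-1 met the rule. PDE3B, the phosphodiesterase through which insulin restrains lipolysis, differed in 1 of 11 bins, with -6.13 to -1.81 in WB and 1.59 to 8.93 in BM, and CDKAL1, a tRNA-modifying enzyme, in 1 of 34.

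Lists of fat-cell genes are read against all placed genes, of which 80.1% had a start-site bin in A in all 7 libraries, 10.2% in B in all 7 and 9.53% in mixed states. The start-site bins of 18 of 18 listed adipogenic factors and of 10 of 11 adipocyte markers were in A in all 7 libraries, LPL being mixed. So were 15 of 16 genes of lipolysis and the lipid droplet, while 12 of 15 of lipid synthesis and 13 of 15 of oxidative metabolism were near the share of all genes. In contrast, 37 of 39 long adhesion and neuronal genes were in B in all 7. Of factors that pattern visceral fat, 2 of 13 were in A in all, 3 in B in all and 8 mixed, among them WT1, GATA6 and NR2F2. For subcutaneous fat the numbers were 11, 3 and 6 of 20. Among all these lists, KCNJ11, of 83 potassium channel genes, was the one member whose start-site bin differed, as did 14 of all 12764 placed genes, and no member had a start-site bin past limma. In expression, CEBPD, an early adipogenic factor, was the 1 of 18 adipogenic genes that passed edgeR, and it was higher in wild boar. Of the adipocyte markers, 0 of 11 passed, where 0.531% of all genes passed. Counts this small are no result about either list.

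By limma, 32 bins passed an adjusted p of 0.05 (11988 had an unadjusted p below 0.05): 11 higher in wild boar (0.01% of bins) and 21 lower (0.0191%). With median-centred PC1 it was 6 higher and 27 lower. Of the 32, 10 also differed in sign, 4 of the 133 in A in wild boar and 6 of the 39 in B. The sign rule and limma use the same PC1 values, so this overlap is no separate evidence. Leaving out single libraries gave 11 to 197 bins, the most without WB GOM replicate 2 and the fewest without WB GOM replicate 1; 96 passed without BM ULB replicate 2. Without WB ULB replicate 1 or 2 the number was 14 and 15, and without BM GOM replicate 1 or 2 it was 19 and 18. No bin of the 32 changed direction in any of these fits. The largest difference was at the start of chromosome 6, chr6:1-40000, where the long non-coding RNAs LOC102168158 and LOC102157454 are annotated. Mean PC1 over these 2 bins was 49.2 and 37.8 in WB GOM and 44.7 and 39.0 in WB ULB, against -23.4 and -25.8 in BM GOM and -17.9 in BM ULB. All WB libraries were deep in A and all BM libraries in B. The differences were 71.1 (SE 5.16, adjusted p = 0.0017 with limma) and 56.7 (SE 2.74, adjusted p = 0.0001), and both bins passed in all 7 fits with 1 library left out. On chromosome 14, 7 of the 100 highest differences lay at chr14:87280001-87440000, where a median of 76.0% of 31-base words occurred more than once in the genome. One of them, chr14:87380001-87400000, passed limma with -0.67 to 10.8 in WB and -48.8 to -38.9 in BM (difference 48.1, SE 3.47, adjusted p = 0.0017), also in all 7 fits. A run of 2 bins there, chr14:87280001-87320000, differed in sign, with means of 5.31 to 10.8 in WB and -28.7 to -1.40 in BM.

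Many of these bins are repeated in the genome. Of the 31-base words of a bin, a median of 65.4% in the 11 higher and 59.2% in the 21 lower bins occurred more than once in Sscrofa11.1, against 9.2% over all bins. Among the bins that differed in sign it was 9.6% in A in wild boar and 20.0% in B in wild boar, where 18 of 39 bins (46.2%) were over 30%, against 4.50% of all bins. Further, in all but 1 pair of chromosome and library, 1 PC1 value recurs (equal to 6 decimals in at least 3 bins). All 53 bins of only unknown bases held it, so it was read as standing for bins without a value of their own. In 378 bins at least 1 library held it, among them 7 of the 32, 2 of the 133 and 6 of the 39. Without bins over 30% repeated words, 2.86 Mb differed in sign (2.44 Mb in A and 0.42 Mb in B in wild boar) and 1 bin passed limma, the first of chromosome 6 (adjusted p = 0.0064). These exclusions were chosen after the values were seen. The cause of the differences in repeated bins was not tested.

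Olfactory receptor genes, a large family in tandem clusters, were frequent among the largest differences, mainly among those low in wild boar. Of the 100 lowest differences 27 overlapped one, and of the 100 highest 6 did (11 with PC1 divided by its SD on each chromosome), against 0.787% of all bins. Past limma it was 6 of 21 lower bins (28.6%) and 1 of 11 higher bins. Without bins over 30% repeated words it was 7 of the 100 lowest and 1 of the 100 highest, against 0.452% of the bins left. The 100 lowest bins fell into 33 places, 12 of them with such genes. The largest of these 12 was chr2:67560001-67840000, where all 14 bins were lower in wild boar, 7 of 18 annotated genes were olfactory receptors and the median of repeated words was 77.6%. Mean PC1 there was -31.7 and -36.7 in WB GOM, -29.3 and -37.1 in WB ULB, -7.85 and 5.69 in BM GOM and 3.54 in BM ULB. In 5 of the 11 bins ranked there at least 1 library held the recurring value, so the BM means rest partly on it. The bin with the smallest adjusted p there, chr2:67600001-67620000, was -35.2 to -33.5 in WB and 11.02 to 17.7 in BM (difference -47.9, SE 2.75, adjusted p = 0.0003 with limma), but in all 3 BM libraries it held the recurring value. Its neighbours at chr2:67800001-67840000 held none, and their differences were -41.2 (adjusted p = 0.002) and -36.0 (adjusted p = 0.0051). They passed in all 7 fits with 1 library left out.

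Other low bins carried zinc finger and transporter genes. ZNF883 and ZFP37, neighbours on chromosome 1, each had a bin in B in wild boar. PC1 at chr1:253660001-253680000, in ZNF883, was -26.7 and -42.3 in WB GOM, -42.9 and -43.5 in WB ULB, 43.5 and 13.8 in BM GOM and 22.3 in BM ULB (difference -64.3, SE 6.45, adjusted p = 0.0165 with limma). It was the largest negative difference of all bins. The bin had 25.8% repeated words and no recurring value. ZNF883 TPM was 0.862 to 1.59 in WB and 0.464 to 0.897 in BM, and its log2 fold change of 1.05 had an adjusted p of 0.329 with edgeR. The run of 3 bins at chr11:64540001-64600000 lies in a gene like multidrug resistance-associated protein 4. Its mean was -37.9, -19.7, -43.8 and -21.6 in WB and 15.8, 13.8 and 11.2 in BM, with 70.4% repeated words. In its first bin all 3 BM libraries held the recurring value, and without such bins the length in runs of at least 3 fell from 0.12 to 0.06 Mb. GVIN1, which encodes a large interferon-inducible GTPase, had a bin at -44.4 to -23.3 in WB and 8.45 to 13.1 in BM (adjusted p = 0.0262 with limma). One BM library held the recurring value there.

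The 100 highest differences were less repetitive (median 10.7% repeated words) and 76 lay on chromosome 1, which holds 12.5% of bins. The spread of the difference was wider on chromosome 1 (SD 7.44) than on any other (2.32 to 5.19), and with PC1 divided by its SD on each chromosome 25 of 100 were on chromosome 1. They fell into 48 places. The largest of these held 11 bins at chr1:260480001-262480000, around CDK5RAP2, TRAF1, C5 and GSN, with a mean difference of 23.6. Mean PC1 over them was 62.0 and 38.7 in WB GOM against 9.96 and 15.2 in BM GOM, and 34.5 and 35.1 in WB ULB against 25.4 in BM ULB. The gap was wider in the GOM, as over all 100 bins, whose median difference was 33.2 in the GOM and 13.4 in the ULB. PC1 was most spread in WB GOM replicate 1, with an SD over bins of 34.8, against 30.4 to 31.8 in the other libraries. The part of that library in the wider gap was not tested. The next places held 10 bins around AKAP12, MTHFD1L and IYD and 7 bins around SMAD7, DYM and LIPG, an endothelial lipase. The bin of TRPM3, a cation channel, passed limma with 35.1 to 43.1 in WB and 13.8 to 16.4 in BM (difference 24.5, SE 2.75, adjusted p = 0.0262), all in A.

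Bins in A in wild boar lay somewhat nearer than all bins to the edges of topologically associated domains (TADs). Their median distance to the nearest edge was 70 to 90 kb in the 4 TAD lists (1 per breed and depot), against 110 to 130 kb for all bins, and 28.6% to 33.8% were within 40 kb, against 19.9% to 21.1%. For bins in B in wild boar the median was 90 to 110 kb. TADs and PC1 share libraries. For Bama pig ULB the merged replicates behind the TAD list include the library of earlier work, which is not among those of PC1.

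Across genes, expression and PC1 moved together weakly. Over 11900 placed genes tested, the breed difference of PC1 in the start-site bin and the log2 fold change correlated with r = 0.0392 and Spearman's rho = 0.0475, a description across genes that share libraries. Among the 10% of genes with the highest PC1 difference, 59.1% of the 1224 tested had a positive log2 fold change, against 55.0% of all and 49.0% of the 1170 tested among the 10% with the lowest. The median log2 fold changes were 0.14, 0.08 and -0.01. Among the highest 10%, 7 genes (0.572% of those tested) passed edgeR and all 7 were lower in wild boar. Among the lowest 10%, 2 were higher and 4 lower (0.513%). Both shares were near the 0.513% of all placed genes tested, so these counts are no result about either group. Of 61 placed genes that passed edgeR, 16 rose and 45 fell in wild boar, 10 of the 16 in bins with higher and 20 of the 45 in bins with lower PC1. None had a bin past limma. Over all placed genes the median PC1 difference of the start-site bin was 0.889, so most of these genes lay in bins with higher PC1 in wild boar. The 2 genes called in bins that differed went opposite ways. NPSR1 was low in wild boar, with 2 of its 14 bins in B by the sign rule. ABCB11 was low in wild boar, with its start-site bin in A.

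**Figure D5:**
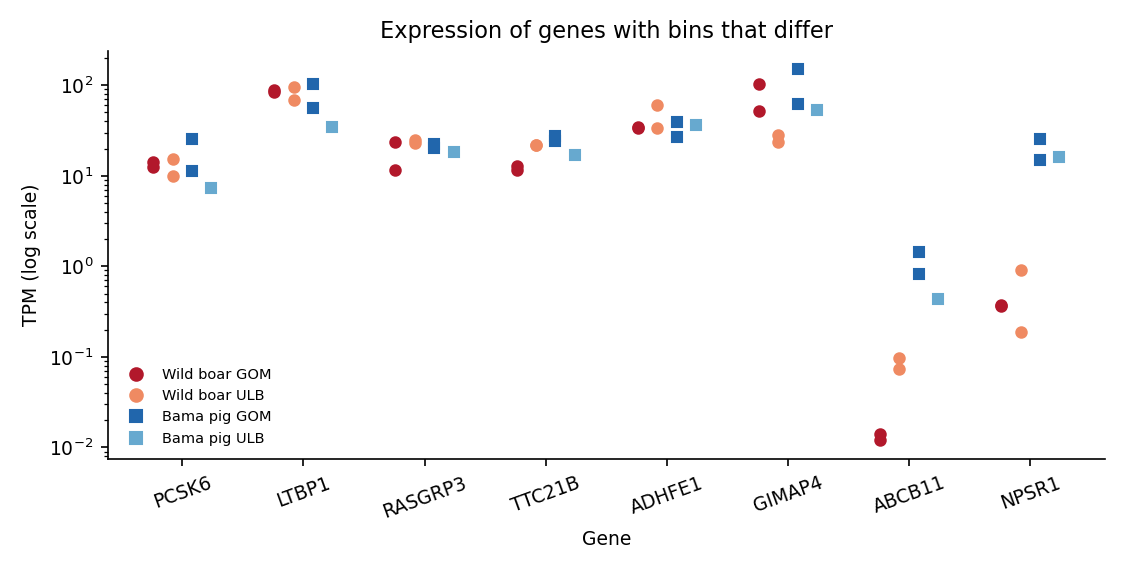
TPM (y axis, log scale) of 8 genes with bins that differed, with 1 point for each of the 7 RNA-seq libraries, circles for wild boar and squares for Bama pig. Only ABCB11 and NPSR1 of these 8 separate the breeds, both higher in Bama pig, and the other 6 overlap.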

How the data were processed

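Hi-C and RNA-seq libraries of wild boar and Bama pig GOM and ULB were used, 7 of each, grouped by their labels. The authors aligned Hi-C reads to Sscrofa11.1, applied Knight-Ruiz and quantile normalization, and deposited 1 PC1 score for each library in every 20-kb bin; the files call it an A-B index, but it is centred on 0 on each chromosome, and gene density set its sign. The files carry no contact counts, so the depth of PC1 is unknown. The authors deposited estimated counts and TPM values from kallisto (0.43.0 in the processing notes) for protein-coding genes, and a list of TADs for each breed in each depot, from replicates merged first, whose start and end positions were used as deposited. Estimated counts summed to 10833153 to 18627076 per library and were rounded.

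Genes were placed by symbol through the RefSeq annotation of Sscrofa11.1 (13521 of 21280, 63.5%), whose autosomes have the lengths in the files; 12764 lay on the autosomes used. PC1 was fitted with limma 3.58.1 and counts with edgeR 4.0.16 (TMM, quasi-likelihood F test, TPM above 0.1 in every library of a group), in R 4.3.3, with 1 mean per breed and depot, the depot-averaged breed contrast, two-sided p-values and Benjamini-Hochberg adjustment over all bins or genes. The SE of a log2 fold change is its size divided by the root of F. All groups share 1 spread, since Bama pig ULB has 1 library. The p-values measure the spread between libraries, which include 2 depots of the same animals. DESeq2 1.42.0 was an alternative. The 35 partings and 18 relabellings were enumerated, with adjustment over these 4 values. Repeated words were 31-base words taken every 40 bases and counted on both strands of the assembly. Other steps ran in Python 3.11.15 (scipy 1.17.1, pandas 2.3.3, numpy 2.4.6), and plots were drawn with matplotlib 3.10.9. Each fit was tested on simulated data.

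The bins, genes and lists were chosen with earlier results of these data known. Genes were named by these rules: up to 10 per direction with a start-site bin that differed; genes with start sites in the longest runs; genes of any bin that differed that passed edgeR; list members with such a start-site bin; and NKX6-1 and SLC2A2. RRS1, ADHFE1, LTBP1 and the other genes were named after their values were seen, as were the olfactory receptor genes, found by their annotated products because the list by symbol matched no placed gene. No other sample columns are in the files (0 columns). The lists of diabetes and fatness genes, the zinc finger, keratin and protocadherin families and all marker lists had no member with a start-site bin that differed.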

Additional observations from a re-analysis of the deposited data

How the results depend on the processing

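The exact p-values of the length that differed and of the length in runs stayed above 0.05 under the alternatives that kept all 7 libraries. With 6 libraries these tests cannot reach 0.05, nor can that of the correlation with 7, so their p-values say nothing of stability. The correlation was 0.104 to 0.276 over its alternatives, and the BM ULB library could not be left out of it. The number of genes was 1 with an absolute PC1 of at least 5 in every library and 19 to 93 when 1 library was left out. Bins past limma numbered 84 with PC1 divided by its SD, 13 on all 18 autosomes, 11 to 197 when 1 library was left out, 18 without bins at the recurring value and 1 without bins over 30% repeated words, the last 2 adjusted over the bins left. Genes past edgeR numbered 1178 with DESeq2, 571 without a filter and 4 to 1806 when 1 library was left out. Without the BM ULB library the breed contrast came from an additive model of breed and depot. The median log2 fold change of genes in A in wild boar was 0.79 for the 2 genes with every bin differing, 0.44 for 7 genes with median-centred PC1 and -0.49 to -0.11 when 1 library was left out. For B in wild boar it is the value of GIMAP4, -0.74 to 0.12 when 1 library was left out, and it turned to 0.12 without BM ULB replicate 2; no gene in B had every bin differing. The cause of these changes was not tested. Olfactory receptor bins were 7 of the 100 lowest without bins over 30% repeated words, and chromosome 1 bins 25 of the 100 highest with PC1 divided by its SD.

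The sources do not tie same-numbered libraries to an animal, and their deviations correlated with r = -0.121 to 0.068 in PC1 and -0.093 to 0.154 in log2 CPM. With the replicate block 28 bins passed limma, 23 of the 32 among them but not PCSK6 (adjusted p = 0.0508), and 293 genes passed edgeR. With 1 library of Bama pig ULB, spread in that group cannot be seen. PC1 carries no counts, so depth gives no interval.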
